A study of Mus musculus with 2 samples.

Results

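The genes described here were 10 mouse CC chemokines, Ccl2, Ccl3, Ccl4, Ccl5, Ccl6, Ccl7, Ccl8, Ccl9, Ccl12 and Ccl24. They were taken by symbol from the gene list of the count matrices and made up 10 of its 31053 genes. The matrices held single-cell RNA counts of the aortic arch from male C57BL/6 mice, 16 weeks old and Apoe-/- in both groups. The ND group ate chow and the HFD group ate a high fat, high cholesterol diet for 12 weeks from an age of 4 weeks. Aortas were shredded and digested with warm enzymes, and the cells of 2 aortas were pooled into 1 library per diet. With 1 library per diet there was no replicate and no test between diets. Every interval given is an exact 95% interval that covers counting error only, not the spread between mice. No Apoe+/+ mice were in the comparison, so diet was compared within a knockout that itself raises plasma cholesterol. Apoe stood at 46.3 CPM (UMIs of a gene per 1e6 UMIs of the cells) in all kept ND cells and at 49.1 CPM in HFD cells. A 3′ count does not check a deletion elsewhere in a gene.

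Counts were unique molecular identifiers (UMIs), each marking 1 captured RNA molecule at its 3′ end, so levels needed no correction for gene length. A barcode was kept with at least 200 UMIs, at least 200 genes and at most 30% of its UMIs from mitochondrial genes. This left 5416 of 10234 ND barcodes with 27137322 UMIs and 2739 of 14225 HFD barcodes with 17191279 UMIs. ND cells had a median depth of 3732.5 UMIs and HFD cells one of 5336. Among all barcodes 39 occurred in both libraries, and 1 of these was kept in both. The libraries were not alike in makeup. An airway club cell gate, defined by genes such as Scgb1a1, held 53 ND cells and 0 of 2739 HFD cells, which allows a share of up to 0.110% there, taking a count of 0 as at most 3. B cell markers defined 503 ND and 14 HFD cells, and T cell markers 269 ND and 30 HFD cells. Smooth muscle and pericyte markers, which define the arterial wall, gave 23 ND and 7 HFD cells, so the wall's main cell type was scarce among the counts.

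A cell was placed in a class when it held UMIs of at least 3 of that class's marker genes. Barcodes that met the rule for 2 unrelated classes were set aside as mixed. The macrophage gate, with C1qa, C1qb, C1qc, Adgre1 and Csf1r among its markers, held 340 ND cells, 6.28% of the library, and 486 HFD cells, 17.7%. Within it, cells with at least 2 of Lyve1, Folr2, Cbr2, Timd4 and F13a1 were called resident. Those with at least 2 of Trem2, Gpnmb, Spp1, Mmp12 and Atp6v0d2 were called foam. A cell also had to hold more markers of its list than of the other. All remaining cells, ties included, were called neither, so these could still hold some of the markers. Resident cells numbered 229 in ND and 220 in HFD. Foam cells numbered 20 in ND and 168 in HFD, and 91 ND and 98 HFD cells were neither. The marker sums followed the names, since the foam list reached 7568 CPM in ND foam cells against 107 CPM in ND resident cells. Those lists chose the cells, so these sums are a description of the gates.

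CC chemokines are small secreted proteins that draw leukocytes along a gradient through G protein-coupled receptors, and they are named for adjacent cysteines near the start of the mature protein. In the artery wall they are best known for recruiting monocytes, which become macrophages and, after taking up lipoprotein, foam cells. Ccl2, Ccl7 and Ccl12 are ligands of Ccr2, the receptor that brings inflammatory monocytes out of marrow and into tissue. Ccl3, Ccl4 and Ccl5 draw T cells and monocytes, with Ccr1 a receptor of Ccl3 and Ccl5. Ccl6 and Ccl9 are myeloid chemokines of the mouse that act on Ccr1. Mouse Ccl8 acts on Ccr8, and Ccl24 is an eotaxin that acts on Ccr3 and draws eosinophils.

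The shared feature that gives the family its name is given as 60 coding bases of each gene, spliced and 5′ to 3′ on the gene's own strand, from the GRCm38 annotation. Capitals mark the adjacent cysteine codons. In Ccl24 the coding sequence held 2 adjacent pairs, and the last is shown.
Ccl2: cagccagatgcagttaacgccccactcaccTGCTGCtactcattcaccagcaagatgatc
Ccl7: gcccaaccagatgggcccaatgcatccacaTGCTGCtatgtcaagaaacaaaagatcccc
Ccl12: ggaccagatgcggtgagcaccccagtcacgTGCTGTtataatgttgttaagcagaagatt
Ccl8: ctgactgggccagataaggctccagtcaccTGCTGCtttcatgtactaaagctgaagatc
Ccl3: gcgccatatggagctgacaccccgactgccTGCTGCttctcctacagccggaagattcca
Ccl4: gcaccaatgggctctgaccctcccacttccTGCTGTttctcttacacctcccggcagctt
Ccl5: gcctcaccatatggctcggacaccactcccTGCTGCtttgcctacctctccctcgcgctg
Ccl6: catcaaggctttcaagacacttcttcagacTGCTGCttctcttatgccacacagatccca
Ccl9: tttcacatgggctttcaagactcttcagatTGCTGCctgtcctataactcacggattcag
Ccl24: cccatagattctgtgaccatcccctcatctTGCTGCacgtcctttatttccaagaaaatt

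Over whole coding sequences, Ccl6 and Ccl9 were the most alike of all pairs, with 70.7% of aligned bases identical. Ccl8 and Ccl12 followed at 70.5%, Ccl2 and Ccl12 at 69.7% and Ccl3 and Ccl4 at 69.6%. The least alike were Ccl5 and Ccl7 at 57.5%. Likeness did not blur the counts as far as sequence shows it, because none of the 351 stretches of 50 bases in the last 400 transcript bases of any of the 10 genes occurred in another gene's transcripts. In the annotation Ccl2 overlaps Gm17268 and Ccl6 overlaps E230016K23Rik, so reads in the shared stretch depend on how the counter assigned them.

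9 of the 10 genes lie on chromosome 11 in GRCm38. The first group is Ccl2 at chr11:82035571-82037453, Ccl7 at chr11:82045712-82047525, Ccl12 at chr11:82101845-82103400 and Ccl8 at chr11:82115185-82116799, all on the plus strand. The second group lies 1408978 bases further on and is Ccl5 at chr11:83525778-83530518, Ccl9 at chr11:83572919-83578636, Ccl6 at chr11:83587882-83593087, Ccl3 at chr11:83647844-83649355 and Ccl4 at chr11:83662584-83664683. In that group Ccl4 is on the plus strand and the rest are on the minus strand. The closest neighbours are Ccl2 and Ccl7, with 8258 bases between them, and Ccl9 and Ccl6, with 9245. Ccl24 stands alone at chr5:135569937-135573049 on the minus strand. Ccl6 and Ccl9 have 4 exons in the transcripts used, and the other genes have 3.

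Promoter sequence from RefSeq on GRCm38.p6 was matched for 5 of the 10 genes, Ccl3, Ccl6, Ccl8, Ccl9 and Ccl12. Shown are the 250 bases before the start of 4 of them, the neighbours Ccl6 and Ccl9, whose counts rank together over cells, and the neighbours Ccl8 and Ccl12, whose diet ratios lay in opposite directions. Capitals mark matches, on either strand, to a TATA box (TATAAA), an AP-1 site (TGANTCA) or a C/EBP site (TTNNGNAA).
Ccl6, chr11:83593088-83593337, minus strand: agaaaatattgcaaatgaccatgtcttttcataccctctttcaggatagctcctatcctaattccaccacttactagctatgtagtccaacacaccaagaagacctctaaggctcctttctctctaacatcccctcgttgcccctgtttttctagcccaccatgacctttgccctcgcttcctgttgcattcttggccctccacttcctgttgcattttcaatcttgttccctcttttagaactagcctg
Ccl9, chr11:83578637-83578886, minus strand: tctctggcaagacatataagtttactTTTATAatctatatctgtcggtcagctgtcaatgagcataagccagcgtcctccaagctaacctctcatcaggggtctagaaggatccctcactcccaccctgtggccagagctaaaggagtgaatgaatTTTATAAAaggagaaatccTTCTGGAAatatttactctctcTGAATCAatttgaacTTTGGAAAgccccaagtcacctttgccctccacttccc
Ccl8, chr11:82114935-82115184, plus strand: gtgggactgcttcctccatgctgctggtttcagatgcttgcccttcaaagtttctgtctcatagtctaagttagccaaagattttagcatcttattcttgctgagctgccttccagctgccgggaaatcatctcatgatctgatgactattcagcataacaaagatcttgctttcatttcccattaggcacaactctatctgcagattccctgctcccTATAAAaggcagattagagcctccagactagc
Ccl12, chr11:82101595-82101844, plus strand: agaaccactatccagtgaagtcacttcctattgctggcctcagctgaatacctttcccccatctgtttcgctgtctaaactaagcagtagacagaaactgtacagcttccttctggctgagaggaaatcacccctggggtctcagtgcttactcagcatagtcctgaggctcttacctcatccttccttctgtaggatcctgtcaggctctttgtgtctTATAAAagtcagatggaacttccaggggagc

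Ccl8 and Ccl12 each had a TATAAA, with its first base 32 and 31 bases before the start. Ccl9 had 3 matches to the TATA box, of which those 94 and 92 bases before the start overlap each other, plus 1 AP-1 match at 53 bases and C/EBP matches at 75 and 38 bases. Ccl3, not shown, had 1 C/EBP match at 100 bases. Ccl6 held none of the motifs searched, and none of the 5 promoters held the kappaB motif, GGGA with any base and TTTCC after it, the PU.1 letters GAGGAAGT or the CRE letters TGACGTCA. For comparison, of 32851 promoters cut to the same length, 12.4% held TATAAA, 6.75% the AP-1 letters, 36.8% the C/EBP letters, 0.356% the kappaB motif, 2.44% the PU.1 letters and 1.55% the CRE letters. A match is a run of letters and not a shown binding site.

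Taken over all kept cells, the 10 genes summed to 933 CPM in the ND library (922 to 945) and 2186 CPM in the HFD library (2164 to 2208). The HFD sum was 2.34-fold higher, a log2 ratio of 1.23 (1.21 to 1.25). Macrophage-gate cells held 51.8% of those UMIs in ND and 72.7% in HFD. Mixed barcodes that also passed the macrophage rule held a further 13.6% and 15.4%. Most UMIs of the family therefore came from macrophage-marked barcodes in both libraries, and such cells were a larger share of the HFD library. Fewer cells of a class and less RNA per cell cannot be told apart in the sum over all cells. T cells held 11.2% of the ND sum, nearly all of it Ccl5. Endothelial cells, the largest class with 2221 ND and 1176 HFD cells, held 1.86% and 1.52%.

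**Figure D1:**
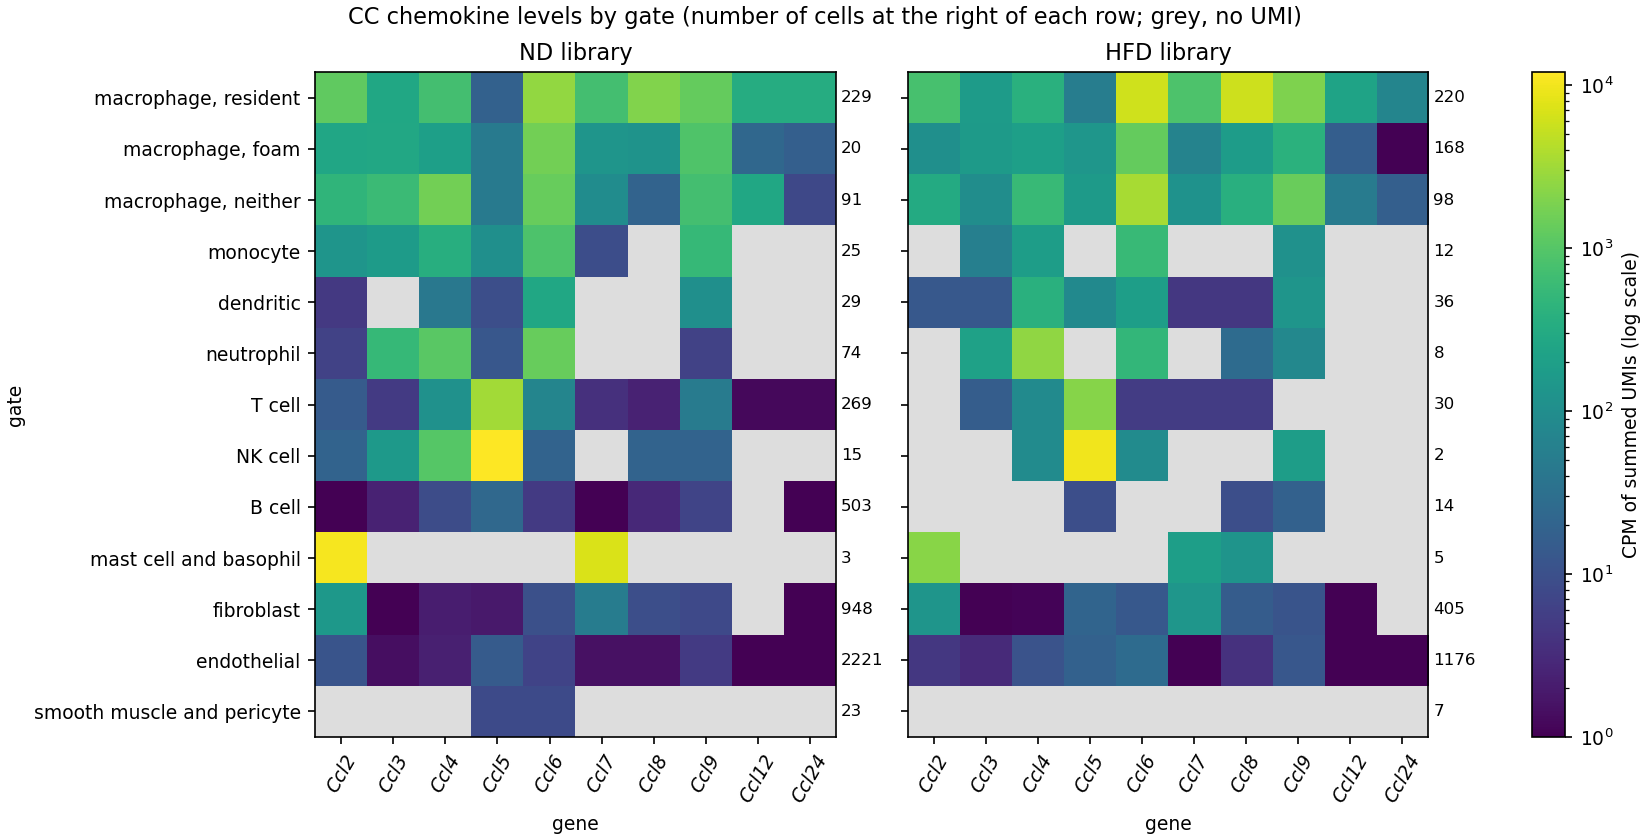
Level of each of the 10 CC chemokines (columns) in each gate (rows) of the ND and HFD libraries, as CPM of summed UMIs on a log colour scale that starts at 1 CPM, with grey for no UMI and the number of cells beside each row. The macrophage subsets carry UMIs of all 10 genes, while Ccl5 is at its brightest in the NK and T cell rows, Ccl2 in the mast cell and basophil row, and Ccl7 in that row in ND and in the resident row in HFD.

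By gate, the genes fell into distinct patterns in the map of levels. Ccl8, Ccl12 and Ccl24 were concentrated in macrophages, with 84.5%, 87.3% and 81.9% of their ND UMIs in the macrophage gate and 82.6%, 76.6% and 76.0% of their HFD UMIs. For Ccl6 and Ccl9 the ND shares were 60.8% and 62.8%, and the HFD shares were 79.3% and 75.1%. Ccl2 and Ccl7, which attract Ccr2-bearing monocytes, had a second source in fibroblasts. The fibroblast gate held 19.6% of ND Ccl2 UMIs and 11.4% of HFD Ccl2 UMIs. It held 13.9% of ND and 13.4% of HFD Ccl7 UMIs. In ND, neutrophils held 8.54% of Ccl3 and 6.42% of Ccl4 UMIs. In HFD they held 4.23% of Ccl4 UMIs and 0.995% of Ccl3 UMIs, the latter being 8 UMIs in 1 cell. Ccl5 was the exception to the myeloid pattern in ND, with 54.9% of its UMIs in T cells and 12.1% in NK cells. In HFD those gates held 22.4% and 5.81%, the macrophage gate 20.8% and mixed barcodes that did not pass the macrophage rule 34.0%.

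Droplet data carry free RNA, so each gene was also read in endothelial cells and B cells. Each cell was first thinned to 1000 UMIs, which left out 63 ND cells and no HFD cell. In endothelial cells, whose median depth was 3486 UMIs in ND and 5296 in HFD, the share with a UMI after thinning was largest for Ccl6, at 0.542% and 1.19%. In macrophages, with medians of 4395 and 5770.5 UMIs, the Ccl6 share after thinning was 67.5% and 72.2%. Ccl24 was in 17.5% of thinned ND and 1.85% of thinned HFD macrophages against 0.0900% of ND and 0.0850% of HFD endothelial cells before thinning. ND B cells gave at most 0.596%, for Ccl4. The endothelial and B cell values are taken here as background. Other classes' RNA was also present in macrophages. The 5 airway club genes summed to 204 CPM in ND and 0.9 CPM in HFD macrophages, and the 5 erythroid genes to 3354 and 5795 CPM.

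Within the macrophage gate the order of levels was similar at the top in both libraries. In ND the order was Ccl6, Ccl8, Ccl9, Ccl2, Ccl4, Ccl7, Ccl3, Ccl12, Ccl24 and Ccl5, and only the intervals of Ccl2 and Ccl4 overlapped between neighbours. The HFD order was Ccl6, Ccl8, Ccl9, Ccl2, Ccl7, Ccl4, Ccl3, Ccl5, Ccl12 and Ccl24. There, Ccl2 and Ccl7, Ccl7 and Ccl4, and Ccl5 and Ccl12 could not be separated by their intervals. Ccl6, Ccl8 and Ccl9 together therefore led in both diets, and Ccl24 and Ccl5 exchanged the last place.

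Read against diet, macrophages gave nearly equal sums. The 10 genes summed to 7918 CPM (7783 to 8055) in ND macrophages and 8127 CPM (8031 to 8224) in HFD macrophages, a log2 ratio of 0.04 (0.01 to 0.07). The near-equality depended on the mitochondrial limit, since at 20% the log2 ratio was -0.24 over 235 ND and 216 HFD macrophages. Of these, 166 ND and 62 HFD cells were resident. At 10%, with 33 ND and 20 HFD macrophages left, the log2 ratio lay further below 0, as given under the processing. Of those, 23 ND cells and no HFD cell were resident, so a lower limit also changed the mix of subsets. Behind the near-equal sums, the makeup differed. Ccl6 made up 28.0% of the ND sum and 41.4% of the HFD sum, and Ccl8 16.9% and 26.7%. Ccl2 went from 11.9% to 4.7% and Ccl4 from 11.2% to 4.1%. 5 of the 10 genes, Ccl2, Ccl3, Ccl4, Ccl12 and Ccl24, were at least 2-fold lower in HFD, against 7.2% of the 9338 genes with at least 20 UMIs in the gate. Ccl4 and Ccl24 stayed past 2-fold in all 10 other settings tried, while Ccl2, at -0.63, and Ccl12, at -0.80, did not with HFD subsets weighted by ND shares, nor Ccl3, at -0.85, with thinned cells. Only Ccl5 was at least 2-fold higher, against 4.44% of genes, and 352 of its 379 HFD UMIs stood in 5 cells. The median log2 ratio of the 10 was -0.84, beside -0.11 for all genes measured. The other settings all used kept barcodes. Barcodes that failed the limits but passed the macrophage rule, 123 in ND and 492 in HFD, were read over UMIs outside mitochondrial genes. There Ccl4 was higher in HFD, at 392 and 864 CPM, as were Ccl3, at 276 and 406, and Ccl7, at 276 and 503. Ccl2 stood at 676 and 719 CPM in them, while Ccl12 and Ccl24 were lower in HFD there too.

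Of the Ccr2 ligands, Ccl2 and Ccl12 were at least 2-fold lower in kept HFD macrophages. Ccl2, the leading monocyte attractant, stood at 939 CPM in ND (893 to 987) and 382 CPM in HFD (361 to 403), a log2 ratio of -1.30 (-1.41 to -1.19). Ccl12, its closest relative in this group, stood at 286 CPM (261 to 313) and 97.3 CPM (87.0 to 108), with a log2 ratio of -1.56. Ccl7 was at 517 CPM and 353 CPM, a log2 ratio of -0.55 (-0.68 to -0.42). None of these intervals overlapped between libraries, but Ccl7 showed the smallest of the 3 differences and turned to 0.22 when the HFD subsets were weighted by the ND share of UMIs. The share of macrophages with a Ccl2 UMI was 64.1% in ND and 49.8% in HFD, and 42.9% and 23.9% after thinning.

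The macrophage inflammatory proteins Ccl3 and Ccl4 were lower in kept HFD macrophages too. Ccl3, also called MIP-1 alpha, stood at 348 CPM (320.2 to 378) in ND and 158 CPM (145 to 172) in HFD, 2.20-fold lower. Ccl4, or MIP-1 beta, stood at 891 CPM (846 to 937) and 331 CPM (311 to 351), 2.69-fold lower. Ccl3 UMIs occurred in 111 ND and 144 HFD macrophages and Ccl4 UMIs in 121 and 148, unevenly over these cells. For Ccl3, the top 5% of macrophages held 48.6% of ND and 49.9% of HFD UMIs. The top 5% of macrophages held 53.3% of ND and 62.2% of HFD Ccl4 UMIs, and up to 93 UMIs stood in 1 ND cell. Leaving out the cell with most UMIs in each library changed the Ccl4 log2 ratio from -1.43 to -1.42.

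Besides Ccl5, Ccl6 and Ccl8 were the genes that stood higher in HFD. Ccl6 was at 2218 CPM (2147 to 2291) in ND and 3366 CPM (3304 to 3429) in HFD, a log2 ratio of 0.60 (0.55 to 0.66). Ccl8 was at 1337 CPM (1282 to 1394) and 2174 CPM (2124 to 2224), a log2 ratio of 0.70 (0.63 to 0.77). At a mitochondrial limit of 10%, which left 33 ND and 20 HFD macrophages, both turned, to -0.39 for Ccl6 and -2.81 for Ccl8. Resident cells were 23 of those ND macrophages and none of the HFD ones, so these values compare unlike subsets. Ccl9, the neighbour and closest relative of Ccl6, was at 1129 CPM (1079 to 1182) and 1125 CPM (1089 to 1161), and those intervals overlapped. Its log2 ratio was -0.0055 and ranged from -1.33 to 0.57 over 10 other settings. Ccl24, the eotaxin, had the lowest ratio of the 10, with 224 CPM (202 to 248) in ND and 28.3 CPM (22.9 to 34.6) in HFD, 7.93-fold lower. Its UMIs occurred in 37.6% of ND and 10.3% of HFD macrophages.

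**Figure D2:**
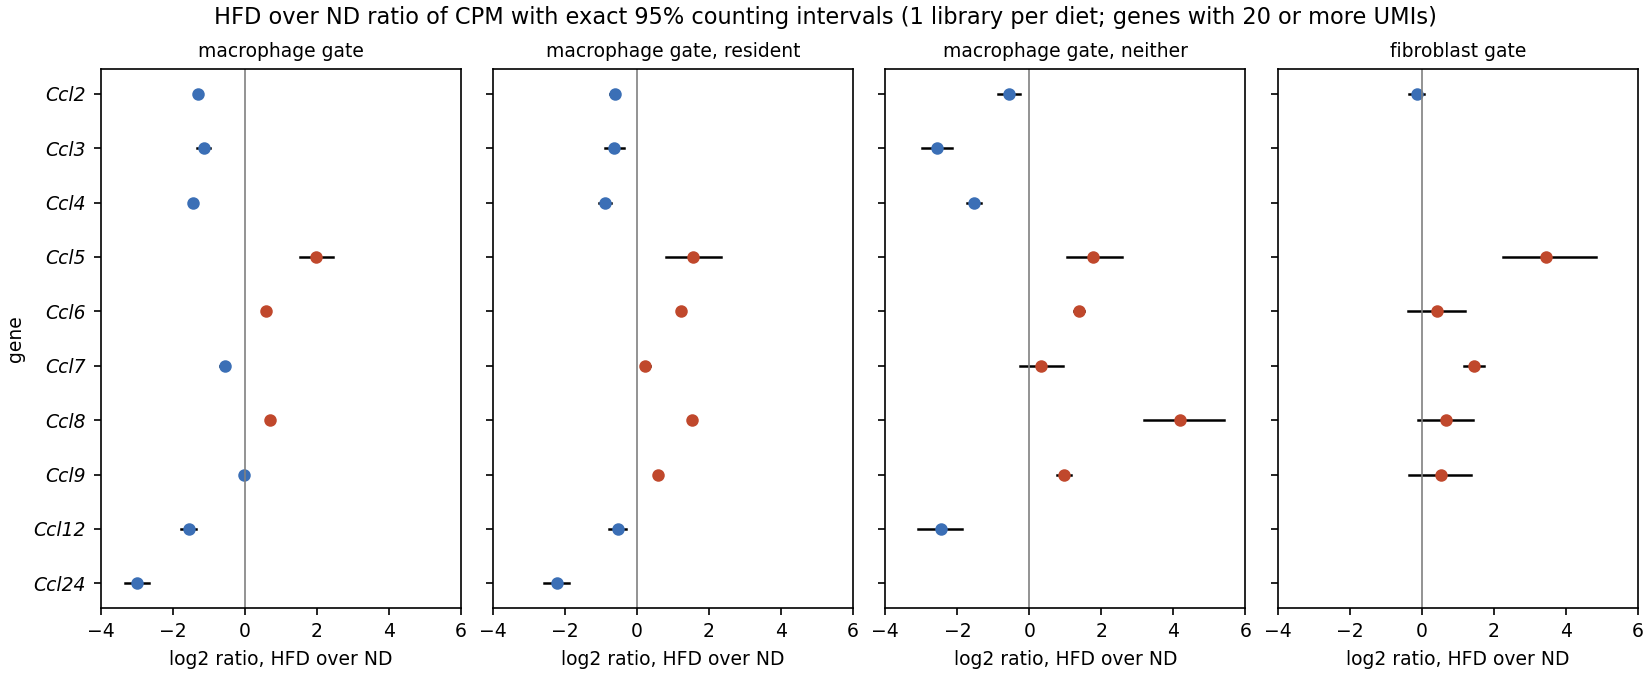
Log2 ratio of HFD over ND CPM (horizontal axis) for each CC chemokine with at least 20 UMIs (vertical axis). Panels show the whole macrophage gate, its resident cells, its cells of neither subset and the fibroblast gate. Points are blue below 0 and red above it, with exact 95% counting intervals as lines. Ccl24 lies furthest left in the macrophage gate and in resident cells, and Ccl6 and Ccl8 lie right of 0 in every panel in which they are shown.

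The macrophages themselves differed in kind between libraries. Resident cells gave 65.6% of the macrophage UMIs in ND and 34.9% in HFD, while foam cells gave 10.5% and 47.7%. Since the subsets differ in chemokine level, each was read on its own. When the HFD subsets were weighted by the ND share of UMIs, a calculation chosen after the data were seen, the log2 ratio of the macrophage sum became 0.67 in place of 0.04.

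Resident cells had the highest sum of the 3 subsets and the largest difference by diet. Their sum was 9607 CPM (9423 to 9793) in ND and 16445 CPM (16214 to 16679) in HFD, 1.71-fold higher. In foam cells the sum was 3606 CPM (3330 to 3899.5) in ND and 2604 CPM (2526 to 2684) in HFD, and in cells that were neither it was 5186 and 6567 CPM. Within each library the sum was therefore highest in resident cells and lowest in foam cells. The HFD resident cells had a median mitochondrial share of 23.2% against 16.8% in ND resident cells, and the part of this in the sums was not tested.

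**Figure D3:**
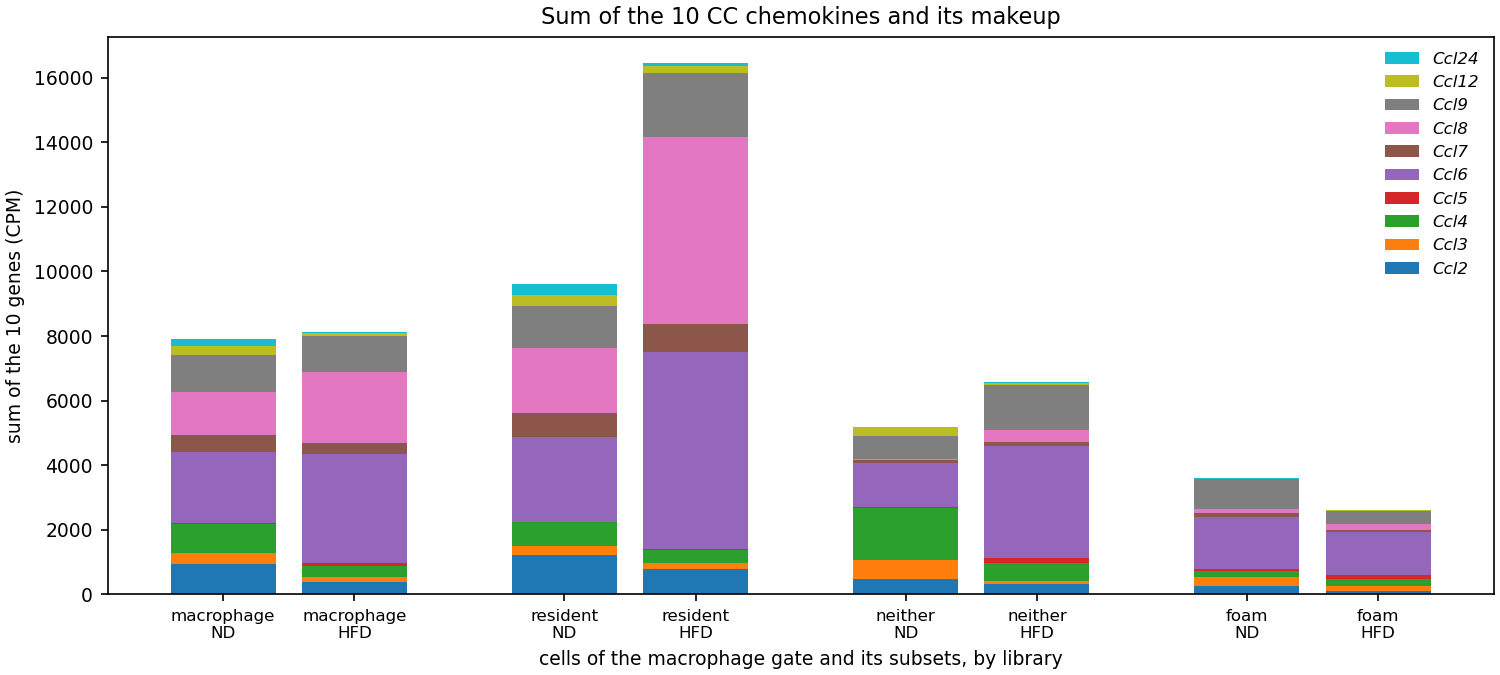
Stacked bars of the summed level of the 10 CC chemokines (CPM, vertical axis) in the whole macrophage gate and its resident, neither and foam cells in each library, each colour being 1 gene. The macrophage bars are of nearly equal height at 7918 and 8127 CPM, while the HFD resident bar at 16445 CPM stands above the ND resident bar at 9607 CPM, mostly through Ccl6 and Ccl8.

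In resident cells 3 of the 10 genes, Ccl5, Ccl6 and Ccl8, were at least 2-fold higher in HFD, against 2.16% of the 7558 genes measured there. For Ccl5 this rested on 1 HFD cell with 58 of 63 UMIs, and without the top cell of each library its log2 ratio was -1.50. Ccl24 alone was at least 2-fold lower, against 5.4% of genes. The median log2 ratio of the 10 was -0.15, beside -0.11 for all genes. Ccl6 stood at 2633 CPM (2538 to 2732) in ND and 6099.9 CPM (5959 to 6243) in HFD, a log2 ratio of 1.21 (1.15 to 1.27). It was detected in 96.1% of ND resident cells and in all 220 HFD resident cells. Ccl8 stood at 2011 CPM (1928 to 2098) and 5792 CPM (5655 to 5931), a log2 ratio of 1.53 (1.46 to 1.60), and its median count per cell was 1 UMI in ND and 10 UMIs in HFD. Ccl6 made up 27.4% of the ND and 37.1% of the HFD resident sum, and Ccl8 made up 20.9% and 35.2%.

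Ccl9 and Ccl7 were higher in HFD resident cells by less than 2-fold. Ccl9 stood at 1313 CPM (1246 to 1383) and 1975 CPM (1895 to 2057), a log2 ratio of 0.59 (0.49 to 0.68), beside -0.01 in the whole gate. Ccl7 stood at 733 CPM (682 to 785) and 861 CPM (809 to 916), a log2 ratio of 0.23 (0.10 to 0.37), beside -0.55 in the whole gate. Both genes thus gave another reading once the cells were split by subset.

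The remaining genes were lower in HFD resident cells. Ccl2 stood at 1221 CPM (1156 to 1288) and 793 CPM (743 to 846), a log2 ratio of -0.62 (-0.74 to -0.50). Ccl12 stood at 334 and 231 CPM, a log2 ratio of -0.53 (-0.76 to -0.30). Ccl3 stood at 270.0 and 174 CPM and Ccl4 at 737 and 395 CPM, with log2 ratios of -0.64 and -0.90. All 4 kept their direction in resident cells with ratios nearer to 0 than in the whole gate. Ccl24 stood at 336 CPM (303 to 373) and 71.6 CPM (57.1 to 88.6), 4.70-fold lower, with UMIs in 53.7% of ND and 19.5% of HFD resident cells. After thinning, those shares were 25.0% and 4.09%.

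Between ND resident neighbours in the order of levels, the intervals of Ccl9 and Ccl2, Ccl4 and Ccl7, Ccl24 and Ccl12, and Ccl12 and Ccl3 overlapped. Among HFD resident neighbours only those of Ccl7 and Ccl2, and Ccl24 and Ccl5, overlapped. Ccl6 and Ccl8, with intervals that did not touch, led in each library.

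The contrast between resident and foam cells within a library does not involve diet and was wide for several genes. Ccl8 was 31.8-fold higher in HFD resident than in HFD foam cells, at 5792 against 182 CPM, a log2 ratio of 4.99 (4.82 to 5.16). Ccl7 was 12.9-fold higher and Ccl12 13.7-fold higher in HFD resident cells. Ccl2 was 7.44-fold higher, at 793 against 107 CPM. Together with Ccl24, these genes of the first chromosome 11 group had the widest ratios of resident over foam cells in HFD. The same 5 genes had the highest ratios over macrophages of neither subset in HFD, where Ccl5 and Ccl4 lay the other way, at log2 ratios of -1.61 and -0.51. In ND the ratio over neither was 0.29 (-0.03 to 0.61) on the log2 scale for Ccl12. Ccl24 counted 84 UMIs in HFD resident cells and 1 UMI in HFD foam cells, a log2 ratio of 6.84 with an interval from 4.32 to 12.16. Ccl6 and Ccl9 were higher too, with log2 ratios of 2.20 and 2.30 in HFD, and of 0.70 and 0.54 in ND. The ND foam levels of these 2 genes, 1617 and 906 CPM, leaned on the top cell. Without it they were 951 and 688 CPM, so the smaller ND ratios rest partly on 1 cell. In HFD, Ccl3 stood at 174 CPM in resident and 167 CPM in foam cells, a log2 ratio of 0.06 (-0.21 to 0.32). In ND too the interval of this ratio included 0. Against cells of neither subset, Ccl3 in resident cells was lower in ND, at -1.14, and higher in HFD, at 0.78.

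ND foam cells numbered 20, so their values rest on little. Ccl6 in foam cells was at 1617 CPM in ND and 1327 CPM in HFD, but 137 of the 282 ND UMIs came from 1 cell, and without the top cell of each library the log2 ratio turned from -0.29 to 0.35. Ccl7 turned likewise from -0.98 to 1.26, and Ccl4 and Ccl12 also changed sign, to 0.12 and 0.33. No direction by diet is given for foam cells for these genes. Ccl9 kept its direction, with 906 CPM in ND and 401 CPM in HFD and log2 ratios of -1.18 with all cells and -0.85 without the top cells.

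Cells of neither subset, 91 in ND and 98 in HFD, had Ccl4 as their highest gene in ND, followed by Ccl6. Ccl4 was at 1616 CPM (1493 to 1746) in ND and 562 CPM (502 to 626) in HFD. Ccl3 was at 594 CPM (521 to 675) and 101 CPM (76.9 to 130.3). Both ND values exceeded those of ND resident cells, with log2 ratios of resident over neither of -1.13 for Ccl4 and -1.14 for Ccl3. Ccl12 stood at 273 and 49.7 CPM there, while Ccl6 went the other way at 1345 and 3469 CPM.

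**Figure D4:**
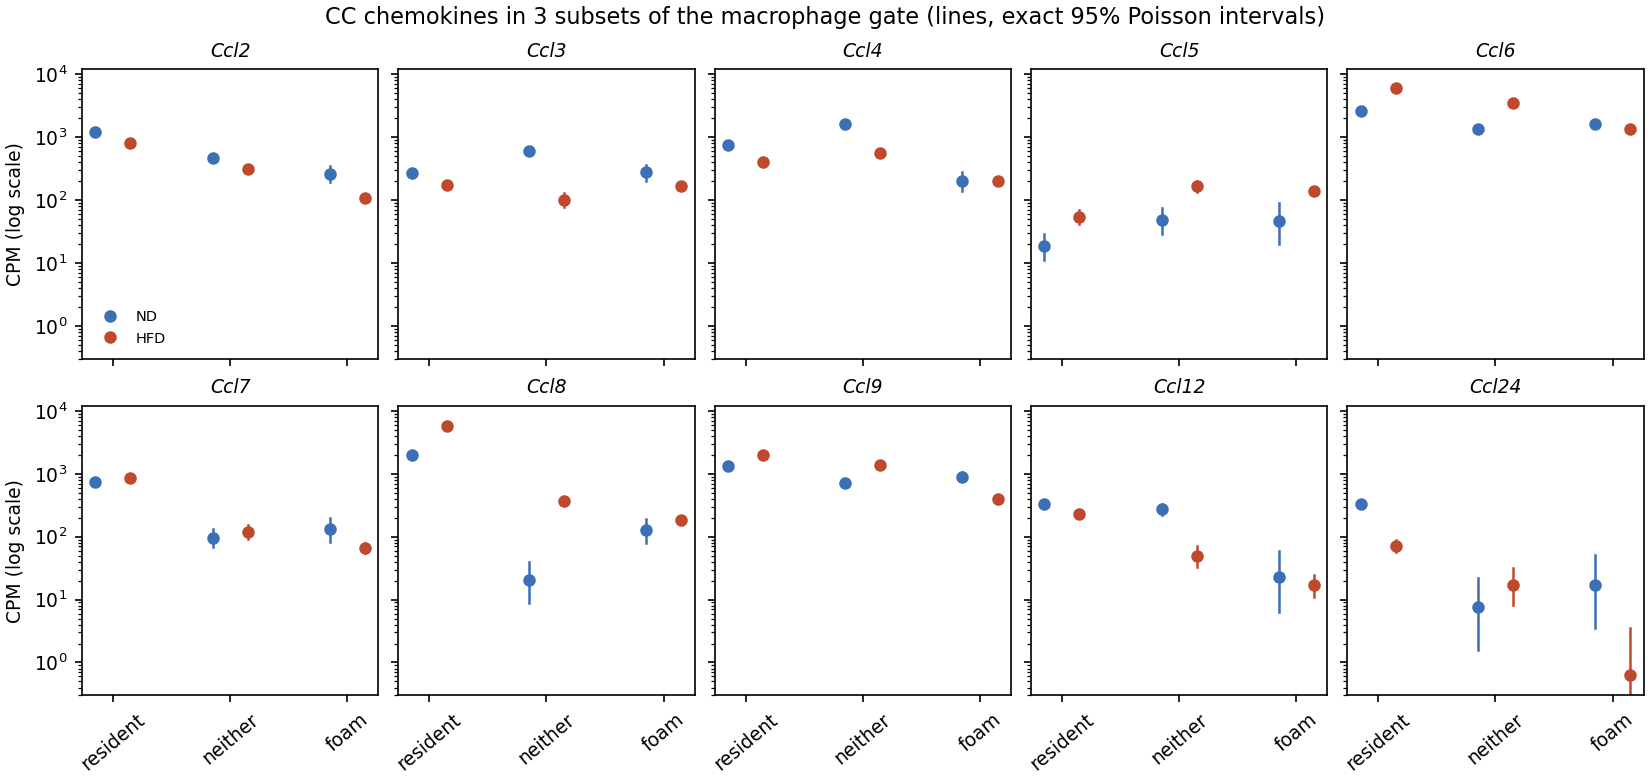
Level of each CC chemokine (CPM, log scale) in resident, neither and foam cells of the macrophage gate in the ND (blue) and HFD (red) libraries, with exact 95% Poisson intervals as lines. Ccl2, Ccl7, Ccl8, Ccl12 and Ccl24 drop by more than 4-fold from resident to foam cells in both libraries, Ccl3 does not, and the ND foam intervals are wide because that subset had 20 cells.

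Ccl5, or RANTES, is a product of activated T and NK cells. It stood at 3262 CPM (3139 to 3390) in ND T cells and 2165 CPM (1959.7 to 2385) in HFD T cells, a log2 ratio of -0.59, with UMIs in 38.7% and 30.0% of cells. All 15 ND and both HFD NK cells held Ccl5. T and NK cells were thus the class that held most of the ND Ccl5, but only 30 HFD T cells and 2 HFD NK cells could be read. In HFD T cells 158 of the 408 UMIs came from 1 cell, and without the top cell of each library the log2 ratio was -1.17.

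In macrophages Ccl5 came from very few cells. Its level there was 28.4 CPM in ND and 113 CPM in HFD, but 352 of the 379 HFD UMIs stood in 5 cells with at least 10 UMIs each, 1 of them with 114 UMIs. Of those 5 cells 2 held a T cell marker, 1 held an NK cell marker and all 5 held a foam marker. Among the 466 HFD macrophages with no Ccl5, 1.29% held a T cell marker, 0.43% an NK cell marker and 67.4% a foam marker. The share of macrophages with a Ccl5 UMI was 5.88% in ND and 4.12% in HFD. In resident cells its log2 ratio of 1.54 likewise rested on 1 cell. The higher macrophage Ccl5 in HFD was therefore a matter of 5 barcodes, and whether these held more than 1 cell was not tested.

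Fibroblasts, with 948 ND and 405 HFD cells, had enough UMIs to compare 6 of the 10 genes. 2 of the 6, Ccl5 and Ccl7, were at least 2-fold higher in HFD, against 1.96% of 10683 genes. None was at least 2-fold lower, against 8.57% of genes. Ccl7 stood at 50.9 CPM (43.9 to 58.7) in ND and 139.8 CPM (123 to 158) in HFD, 2.75-fold higher, the reverse of its direction in the whole macrophage gate. Its share of fibroblasts with a UMI was 5.59% and 20.99%, and 2.41% and 9.63% after thinning, against at most 0.0850% of endothelial cells. Fibroblast Ccl5 amounted to 7 ND UMIs and 37 HFD UMIs, 22 of the latter in 1 cell, and its thinned shares of 0.110% and 0.741% were near the endothelial 0.452% and 0.425%.

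Ccl2 in fibroblasts was at 149 CPM (137 to 162) in ND and 135 CPM (119 to 153), and those intervals overlapped. One cell weighed on it, since 149 of the 558 ND UMIs came from 1 cell, and without the top cell of each library the log2 ratio moved from -0.14 to 0.07. Ccl2 UMIs occurred in 8.23% of ND and 15.3% of HFD fibroblasts, or 4.61% and 6.67% after thinning. Macrophage markers were low in the fibroblast gate, at a summed 93.7 and 101 CPM. Ccl6, Ccl8 and Ccl9 stayed at or below 15.4 CPM in fibroblasts, and the thinned Ccl6 shares of 0.548% and 0.988% stood beside 0.542% and 1.19% of endothelial cells.

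Neutrophils, 74 in ND and 8 in HFD, carried Ccl6, Ccl4 and Ccl3. In ND Ccl6 stood at 1329 CPM (1155 to 1521), Ccl4 at 1096 CPM (939 to 1271) and Ccl3 at 542 CPM (433 to 669). With 8 cells the HFD values of 507, 2481 and 213 CPM cannot carry a comparison, and the 8 HFD Ccl3 UMIs came from 1 cell. The remaining 7 genes gave at most 3 UMIs in neutrophils of either library. ND neutrophils were shallow, with a median of 1989.5 UMIs, yet 56.8% held a Ccl6 UMI after thinning. Monocytes, 25 and 12 cells, held Ccl6 at 878 and 569 CPM and Ccl9 at 543 and 114 CPM, without any Ccl8, Ccl12 or Ccl24 UMI. Taken as at most 3 UMIs, those counts of 0 allow up to 27.2 CPM in ND and 56.9 CPM in HFD monocytes.

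Mast cells and basophils were among the scarcest cells that carried members of the family. The 3 ND cells held 123 Ccl2 and 81 Ccl7 UMIs, of which 108 and 77 were in 1 cell. The 5 HFD cells held 34 Ccl2 and 3 Ccl7 UMIs. No other member but Ccl8, with 2 HFD UMIs, was counted in them. With 8 cells over both libraries, this says which 2 genes were seen and gives no level for the class.

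Endothelial cells, although the most numerous, stayed at or below 26.5 CPM for every one of the 10 genes. Ccl6 was at 6.64 CPM in ND and 26.5 CPM in HFD, and Ccl4 at 2.31 and 10.9 CPM. After thinning, Ccl4 UMIs occurred in 0.135% and 0.595% of endothelial cells. Macrophage-gate cells made up 6.28% of the ND and 17.7% of the HFD library, and their part in these endothelial UMIs was not tested. The endothelial shares after thinning were given above as a background level, and whether these UMIs came from free RNA or from the cells was not tested. Ccl2 went against the library as a whole, at 11.6 and 4.53 CPM in endothelial cells and 105 and 126 CPM in all kept cells. In the few lymphatic endothelial cells Ccl2 stood at 53.8 and 64.6 CPM.

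Within the macrophage gate, pairs of genes were ranked together over cells, each thinned to 1000 UMIs. Ccl6 and Ccl9 were the most closely ranked, with Spearman's rho of 0.39 over 338 ND cells and 0.62 over 486 HFD cells. Ccl2 and Ccl7 had rho of 0.38 and 0.36, and Ccl3 and Ccl4 had 0.33 and 0.36. These 3 pairs are near neighbours on chromosome 11 and had the highest values in ND. Ccl6 and Ccl8, from separate groups of genes, had rho of 0.18 and 0.45, and Ccl7 and Ccl8 had 0.22 and 0.39, so in HFD both lay above the pairs of Ccl2 with Ccl7 and of Ccl3 with Ccl4. Ccl8 and Ccl12, also near neighbours, had only 0.09 and 0.27. Within resident cells alone, Ccl6 and Ccl9 had rho of 0.24 over 228 ND cells and 0.39 over 220 HFD cells, and Ccl2 and Ccl7 had 0.34 and 0.33. Ccl3 and Ccl4 had 0.26 and 0.45 there, the highest value in HFD resident cells, while Ccl6 with Ccl8, at 0.29, and Ccl7 with Ccl8, at 0.23, lay below these 3 pairs in HFD. In ND resident cells Ccl2 with Ccl4, from separate groups of genes, had 0.31, above Ccl3 with Ccl4 and Ccl6 with Ccl9, and Ccl4 with Ccl7, at 0.25, lay above Ccl6 with Ccl9 as well. The cells of a library share its depth and its free RNA, so these values are a description. Over the whole macrophage gate Ccl5 had no rho above 0.14 with any member, and within resident cells its rho with Ccl4 was 0.22 in ND and 0.11 in HFD, resting on 3 ND and 2 HFD cells with a Ccl5 UMI.

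**Figure D5:**
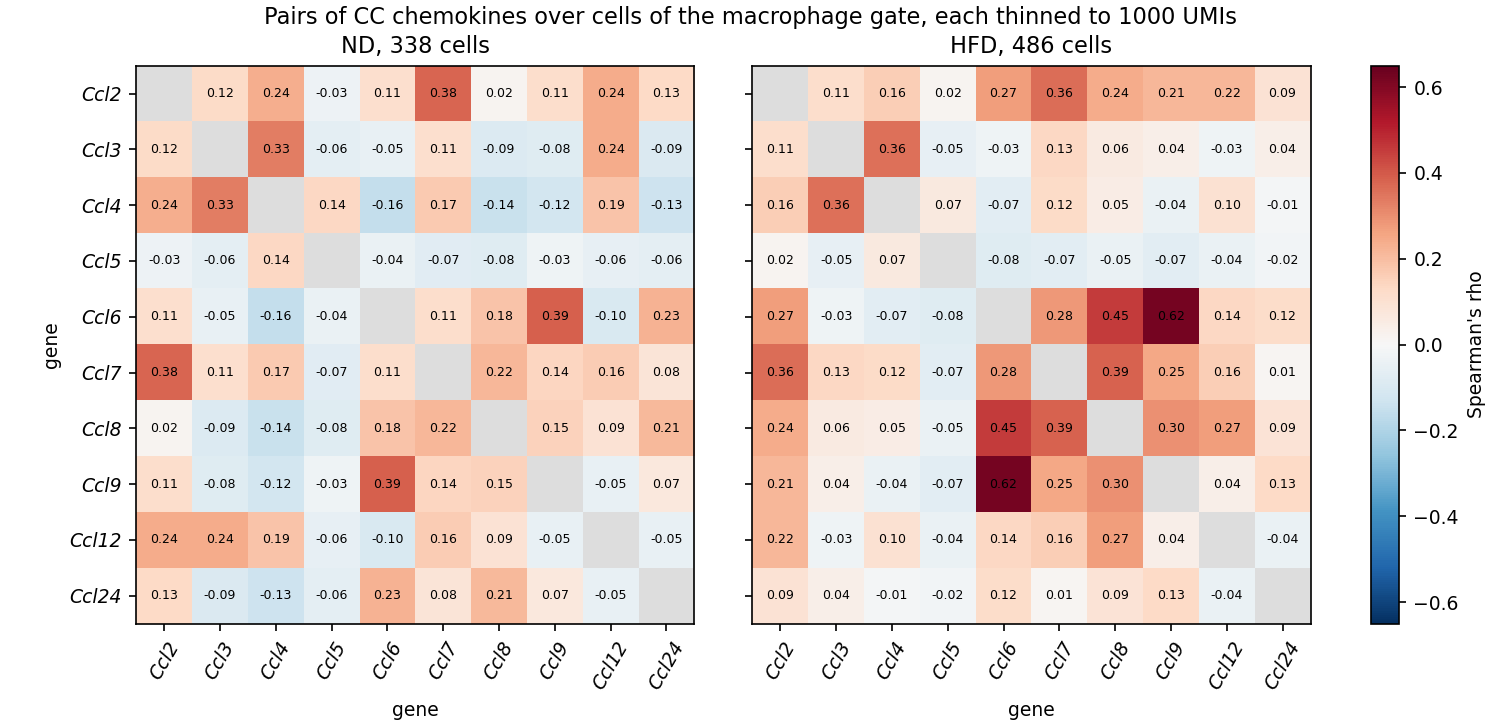
Spearman's rho for each pair of the 10 CC chemokines over cells of the macrophage gate thinned to 1000 UMIs, 338 ND cells at the left and 486 HFD cells at the right, with red for positive and blue for negative values. The pairs Ccl6 with Ccl9, Ccl2 with Ccl7 and Ccl3 with Ccl4 are red in both libraries, and Ccl6 with Ccl8 is darker in HFD.

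Likeness to other genes was measured as Pearson's r of log2(CPM + 10) over the 13 gate and library groups with at least 50 cells, among 12256 genes. These groups share 2 libraries, and r over them mostly ranks genes by cell class. Ccl3 and Ccl4 shared the same closest gene, the inhibitory receptor gene Lilrb4a, at 0.988 and 0.971. Ccl6 was closest to Lrrc25 at 0.983, followed by the Fc receptor genes Fcgr3 and Fcer1g. Ccl9 was closest to Mrc1, the mannose receptor, at 0.981, followed by Tbxas1 and Fcrls. For Ccl12 the genes were Ptpro, Pf4 and Slc7a8, for Ccl8 Nxpe5, Zdhhc14 and Ap2s1, and for Ccl2 Pid1, Ifi207 and Cmklr1, the chemerin receptor. Ccl7 had Ccl2 among its 3 closest genes, at 0.962, after Dse and Scamp5. Ccl24 was closest to Timd4 at 0.967, a gene that helped to define the resident cells. Ccl5 stood with Cst7, a gene of cytotoxic lymphocytes, at 0.95, then Txk and Cysltr2.

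Of the receptors and scavengers of CC chemokines, 5 of the 12 listed had enough UMIs in macrophages, and 1, Ccr7, was at least 2-fold lower, with 16 ND and 13 HFD UMIs, against 7.2% of all genes. Ccr2, the receptor of Ccl2, Ccl7 and Ccl12, stood at 233 CPM in ND and 262 CPM in HFD macrophages. In resident cells it stood at 167 CPM and 331 CPM, a log2 ratio of 0.99 (0.73 to 1.25), while of its ligands Ccl2 and Ccl12 were lower and Ccl7 was higher, at 0.23. Ccr1, the receptor of Ccl6 and Ccl9, stood at 60.8 and 77.5 CPM in resident cells. Ccr3, on which Ccl24 acts, had 8 ND and 4 HFD UMIs in all kept cells, and Ccr8, on which Ccl8 acts, had 2 ND UMIs and none in HFD. The main receptors of Ccl8 and Ccl24 were thus hardly counted in either library. Ackr1, a scavenger of inflammatory chemokines, stood at 40.4 and 69.3 CPM in fibroblasts, and Ackr2 at 23.6 and 36.3 CPM.

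Digestion at a warm temperature can switch on immediate early and stress genes, and these were read beside the chemokines. In macrophages 3 of 11, Egr1, Hspa1a and Hspa1b, were at least 2-fold lower in HFD and none was higher, against 7.2% of all genes lower and 4.44% higher, and the median log2 ratio was -0.80. Their direction was that of Ccl2, Ccl3, Ccl4, Ccl7, Ccl12 and Ccl24, while Ccl5, Ccl6 and Ccl8 lay the other way. In resident cells none of the 11 passed 2-fold, against 5.4% of all genes lower and 2.16% higher, with a median of -0.38. Jun, for example, stood at 868 CPM in ND and 589 CPM in HFD resident cells, and Fos at 2388 and 2006 CPM. Of the inflammatory genes 1 of 10, Cxcl10, was at least 2-fold lower in macrophages, against 7.2% of all genes. Their median log2 ratio was -0.59, beside -0.11 over all genes compared, but Il1rn, at 0.65, and Il1a, at 0.70, were higher in HFD. Cxcl10 stood at 399 and 164 CPM in resident cells, while Il1b stood at 92.1 and 134 CPM. The part of digestion in the levels of the chemokines was not tested.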

How the data were processed

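The authors deposited raw UMI counts per gene and barcode, made with Cell Ranger 3.0.1 per the file headers. Seurat 3.2.0, R 4.0.0 and the build mm10 are named in the submitters' processing notes, and mm10 is GRCm38. The counts were used as deposited, with no correction for free RNA. The limits on UMIs and mitochondrial share follow the study's methods and left its stated numbers of cells. Here, UMIs were summed over the cells of a gate and given as CPM of all UMIs in those cells, with exact Poisson intervals for levels, Clopper-Pearson intervals for shares and conditional binomial intervals for ratios (Python 3.11.15, numpy 2.4.6, scipy 1.17.1, scanpy 1.11.5). A count of 0 was read as at most 3 UMIs, or 3 cells for a share, over the group, in limits and in ratios. Doublets were not removed by score, since Scrublet marked 0 ND and 1 HFD cells. That does not show that doublets were few. Mixed barcodes that passed the macrophage rule numbered 104 in ND and 145 in HFD, and other mixed barcodes 575 and 274. Other mitochondrial limits, marker numbers, totals, thinning and handling of mixed barcodes and doublets were tried. The calculations were tested on simulated data. All 10 members were named, along with lists of receptors, other CC chemokines, immediate early and inflammatory genes and, for each member, the 3 genes of highest r. Items of these lists that are withheld are not reported here. The members and lists were chosen with earlier results of these data known.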

Additional observations from a re-analysis of the deposited data

Results flagged for a closer look

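Among macrophages, endothelial cells and fibroblasts, the ratio of HFD over ND lay in opposite directions, with both intervals clear of 0, for 3 genes, and these differences between gates were not tested. Ccl3 was lower in HFD macrophages, at a log2 ratio of -1.14, and higher in HFD endothelial cells, at 1.11, a difference of -2.25, with 15 ND and 22 HFD endothelial UMIs. Ccl4 gave -1.43 in macrophages and 2.24 in endothelial cells, a difference of -3.67, with endothelial levels of 2.31 and 10.9 CPM, and the part of free RNA in them was not tested. Ccl7 gave -0.55 in macrophages and 1.46 in fibroblasts, a difference of -2.01. In resident macrophages, at 0.23, Ccl7 lay in the same direction as in fibroblasts. Resident cells and cells of neither subset were compared by the same rule, and no gene met it. Other gates were not compared in this way. Among the smaller ones, Ccl4 in dendritic cells also lay opposite to macrophages, at 3.19 with 9 ND and 86 HFD UMIs. These UMIs stood in 3 ND and 11 HFD cells, 42 of the HFD ones in 1 cell, and the ratio was 3.41 without the top cells. Ccl5 in T cells, at -0.59, and Ccl6 in monocytes, at -0.62, are further examples, though the higher Ccl5 in HFD macrophages rested on 5 cells. Neutrophils are left out here because their HFD values cannot carry a comparison.

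Barcodes that failed the limits on UMIs, genes or mitochondrial share also carried the 10 genes. Over UMIs outside mitochondrial genes, the sum was 894 CPM in the 4818 removed ND barcodes against 1083 CPM in kept ones, and 1605 CPM in the 11486 removed HFD barcodes against 2693 CPM in kept ones. Among removed barcodes that passed the macrophage rule, 123 in ND and 492 in HFD, the sum was 4149.55 CPM in ND and 9341 CPM in HFD, against 9392 and 9939.5 CPM in kept macrophages. Ccl2 in those removed macrophages stood at 676 CPM in ND and 719 CPM in HFD, where kept macrophages had 1114 and 467 CPM. Ccl6 stood at 1044 and 3086 CPM in the removed macrophages. Ccl3, Ccl4 and Ccl7 also lay higher in HFD there, at 276 and 406, 392 and 864, and 276 and 503 CPM. Kept macrophages had 413 and 193, 1056 and 404, and 613 and 432 CPM of these genes, lower in HFD. Ccl12, at 401 and 263 CPM, and Ccl24, at 91.8 and 59.6 CPM, were lower in HFD in removed macrophages too.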

How the results depend on the processing

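There was no replicate to leave out. No paired analysis was possible because each diet had 1 library. The near-equal sum in macrophages depended most on the mitochondrial limit, since its log2 ratio of 0.04 became -0.24 at 20% and -1.26 at 10%, where 33 ND and 20 HFD macrophages and no HFD resident cell were left. It was 0.093 with mixed barcodes placed in the class with most markers, 0.077 without mitochondrial, haemoglobin and ribosomal protein genes in the total, 0.18 with libraries scaled by the median of ratios, 0.19 with thinned cells and 0.67 with HFD subsets weighted by ND shares, a setting chosen after seeing the data, as was leaving out alveolar-marked cells, which did not move it. The log2 ratio over all kept cells was 1.23 and became 1.30, 0.87, 1.31, 1.38, 1.10 and 1.25 with the 20% limit, the 10% limit, those genes left out, median of ratios, thinning and the 6% highest doublet scores left out. The macrophage share of ND UMIs became 53.8%, 41.1%, 39.6%, 59.2%, 49.3% and 56.9% with the 20% limit, the 10% limit, 2 markers, mixed barcodes placed, thinning and doublet scores, and the HFD share became 69.3%, 53.5%, 66.2%, 82.7%, 73.8% and 77.7%. 4 markers moved neither share. The calls of at least 2-fold in macrophages were lost for Ccl2, at -0.63, and Ccl12, at -0.80, with weighted subsets, for Ccl3, at -0.95, -0.99 and -0.85, with 2 markers, median of ratios and thinning, and for Ccl5, at 0.95, with mixed barcodes placed. Ccl9 in macrophages, at -0.0055, lay on the other side of 0 in 6 of 10 settings and ranged from -1.33 to 0.57 over the 10. Single genes that turned were otherwise Ccl6 and Ccl8 in macrophages at the 10% limit, to -0.39 and -2.81, Ccl7 in macrophages with weighted subsets, to 0.22, and Ccl5 in resident cells, to -1.67 at the 20% limit, -1.05 with 2 markers of a class and -0.089 with 3 markers of a subset. Apart from Ccl5, each of the genes kept its direction in resident cells in all 9 settings that gave a value, and the 10% limit gave none. The weighting and the cell numbers show what these settings change, and beyond that the causes were not tested. Depth limits Ccl5 and Ccl24 most, with 47 and 95 UMIs in the smaller of their macrophage counts.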

Other observations

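Of the other CC chemokines listed, 4 of 10 had enough UMIs in fibroblasts, and 1, Ccl11, was at least 2-fold higher in HFD, against 1.96% of 10683 genes. Ccl11, an eotaxin like Ccl24, stood at 239 CPM in ND and 610.4 CPM in HFD fibroblasts, a log2 ratio of 1.35 (1.22 to 1.48), while Ccl24 was lower in HFD macrophages. Ccl19, which guides Ccr7-bearing lymphocytes and dendritic cells, stood at 46.6 and 40.7 CPM in fibroblasts. In lymphatic endothelial cells, 44 in ND and 20 in HFD, Ccl21a stood at 6049 and 2851 CPM, with a UMI in 43.2% and 20% of them. The 5 lymphatic markers of that gate summed to 3691 CPM in ND and 1681 CPM in HFD, and their part in the Ccl21a level was not tested. Ccl22 in dendritic cells counted 41 UMIs in 29 ND cells and 3 UMIs in 36 HFD cells. In macrophages only Ccl27a of this list could be compared, with 11 UMIs in each library, which is 6.65 CPM in ND and 3.27 CPM in HFD, a log2 ratio of -1.02 (-2.37 to 0.32). That is at least 2-fold lower, but the levels' intervals overlapped. Of the inflammatory genes 5 of 10 had enough UMIs in fibroblasts, with 2, Cxcl1 and Cxcl2, at least 2-fold higher in HFD, against 1.96% of genes, and 1, Cxcl10, at least 2-fold lower, against 8.57%. Fibroblast Cxcl1, a neutrophil attractant, stood at 258 and 596 CPM, and Cxcl10 at 39.6 and 8.81 CPM. Their median log2 ratio was -0.0043, beside -0.18 for all genes.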
